A study of Mus musculus with 29 samples.

Results

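Carriers of the K228E allele of Tbr1 that had received lithium were set against wild-type mice that had received vehicle. The members are the 7 libraries labelled HT lithium (3 female, 4 male) and the 8 labelled WT vehicle (4 female, 4 male), 15 of the 29 libraries of the series, taken by genotype, drug and sex in their labels, with sex as a covariate. HT means heterozygous for K228E, a substitution in the transcription factor Tbr1, and WT means wild type. All mice were C57BL/6J, and prefrontal cortex was taken at postnatal day 40 for bulk RNA sequencing from a stranded poly(A) kit. The other 14 libraries came from carriers given vehicle (HT vehicle, 3 female and 3 male) or the serotonin reuptake inhibitor fluoxetine (HT fluoxetine, 4 female and 4 male). No library came from wild-type mice given lithium, so a difference between HT lithium and WT vehicle joins the allele and the drug, and their parts cannot be told apart in this comparison. HT lithium against HT vehicle is the only comparison of lithium with vehicle at 1 genotype. Dose, route and length of treatment are not in the labels, which also do not tie libraries to separate animals, so p-values measure the spread between these samples.

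Tbr1 encodes a T-box factor that shapes deep-layer projection neurons of the cortex, the glutamatergic cells that send axons out of their own area, and mutations in the human gene are linked to autism and intellectual disability. Lithium is a mood stabiliser. It inhibits inositol monophosphatase, which recycles inositol for phosphoinositide signalling, and glycogen synthase kinase 3 (GSK3), which holds back Wnt signalling and acts on clock proteins. In neurons it has also been linked to brain-derived neurotrophic factor and to chaperones of the endoplasmic reticulum, the compartment in which secreted and membrane proteins fold.

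The 15 libraries held 22.81 M to 31.71 M reads, and values below are normalised counts, the read count of a gene divided by a size factor per library. All 10 cortical projection neuron markers were measured in every library, Slc17a7, the vesicular glutamate transporter of cortical neurons, at a mean of 42699.5 over all libraries. Prefrontal dissections can carry neighbouring tissue. The olfactory area markers (21 genes) summed to between 9207 and 29006 in the HT lithium libraries and between 10737 and 52399 in the WT vehicle libraries, and Lhx5 was their only member at 0 in a library. Striatal markers (20 genes) summed to between 8724 and 14632 in HT lithium and between 8276 and 15380 in WT vehicle, with Isl1 at 0 in libraries of both arms and Ido1 in WT vehicle. As a mean of log2 levels measured from the median library, the olfactory markers lay between -2.14 and 0.59 in HT lithium and between -1.40 and 1.48 in WT vehicle. The sexes were placed differently: the 4 WT males lay between 0.59 and 1.48 and the 4 HT lithium males between -2.14 and 0.25, without overlap, whereas the 3 HT lithium females (-1.67 to 0.59) overlapped the 4 WT females (-1.40 to 0.83). Either mean was more than 1 above the median library in HT lithium female 2 and in WT vehicle females 1 and 3 and male 3, and the olfactory mean was more than 1 below it in HT lithium female 2, WT vehicle female 1 and HT lithium males 1 and 3. Results are therefore also given without the libraries high in these markers (6 against 5 left), without those high or low (4 against 5 left), and with both means as covariates.

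**Figure D1:**
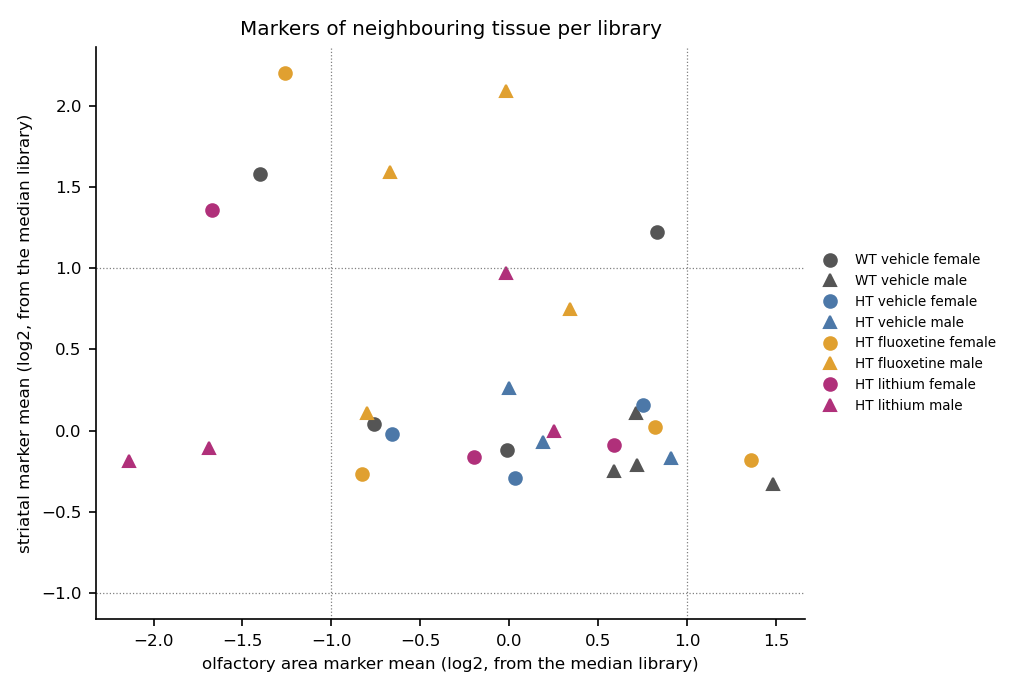
Mean log2 level of the olfactory area markers (x axis) and of the striatal markers (y axis) in each of the 29 libraries, measured from the median library, with dotted lines at 1 and -1. Circles are females, triangles are males and colours are the arms, and the 4 WT vehicle males lie to the right of the 4 HT lithium males.

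HT lithium differed from WT vehicle in 289 of 17881 genes tested, 1.62% of them (limma, Benjamini-Hochberg adjusted p under 0.05, sex as covariate). Of these, 206 were higher in HT lithium (1.15% of genes tested) and 83 lower (0.464%). Here and below, rose and fell mean higher and lower in HT lithium than in WT vehicle, with allele and drug joined. Most differences were small: the median log2 fold change was 0.24 among the higher genes and -0.30 among the lower genes, 254 of the 289 were under 0.5 in size and 2 reached 1. Those 2, named after their values were seen, were low in level: Gm13736, described with chromosome 2, and the inflammasome gene Nlrp6 (mean 19.6, 1.15 ± 0.265, adjusted p = 0.0208). Over all genes tested the median was -0.0043, with 48.5% above 0. An unadjusted p under 0.05 was reached by 3153 genes (17.6%). Counts for the gene lists below are to be read beside these shares of all genes: 1.15% higher, 0.464% lower and 17.6% at an unadjusted p under 0.05. In 57 of the 289 genes no HT lithium library overlapped any WT library, 36 higher and 21 lower, where 0.442% of all genes tested had arms that did not overlap. The choice of genes by their p favours such separation. Other tools on the recovered whole reads called 270 genes (edgeR, 262 of them among the 289) and 538 (DESeq2, 282 of them among the 289). The count was 127 with the marker means as covariates, 77 without the libraries high in markers and 10 without those high or low.

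Tbr1 itself, on chromosome 2 (61802930 to 61814114, GRCm38, ENSMUSG00000035033), was higher in HT lithium. Its normalised count ran from 3777 to 4738 with a median of 4533 in HT lithium, and from 2151 to 3432 with a median of 3035 in WT vehicle. No HT lithium library lay as low as the highest WT library, and the 3 lowest WT libraries were males. The log2 fold change was 0.64 ± 0.094 (SE), 1.56-fold (limma adjusted p = 0.000458), and it kept its call in all 34 other settings, with log2 fold changes between 0.51 and 0.69. The HT vehicle libraries averaged 4067 ± 392 (SD, n = 6), and HT lithium differed from them by a log2 fold change of 0.13 (adjusted p = 0.656), a difference within the spread of both arms. A transcript level does not test which allele a mouse carries.

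The clock genes held 2 of the strongest differences. Per2 (chromosome 1, 91415982 to 91459324), a repressor of the circadian feedback loop, ran from 1593 to 2013 with a median of 1828 in HT lithium and from 977 to 1748 with a median of 1204 in WT. Only the highest WT library, female 4, reached into the lithium range, and all 4 WT males lay below every WT female. The log2 fold change was 0.56 ± 0.076 (SE), 1.47-fold (adjusted p = 0.000295). Bhlhe40, which encodes a repressor of the same loop, ran from 4127 to 4787 in HT lithium (median 4378) and from 3182 to 3947 in WT (median 3267). The arms did not overlap (log2 fold change 0.40 ± 0.056, adjusted p = 0.000295), although 0610040F04Rik lies on the opposite strand and the strand setting of the counting is not stated. Of 21 clock genes, 4 rose (19%, against 1.15% of all genes) and 0 fell, with 18 above 0 and a median of 0.12. The other two were Csnk1d, a kinase that marks period proteins for degradation (0.12 ± 0.030, adjusted p = 0.0385), and the repressor Cry2 (0.13 ± 0.033, adjusted p = 0.049), called in 19 and 12 of 34 other settings. With the marker covariates 2 of the 21 passed, without the libraries high in markers also 2, and 1, Per2, without those high or low. Leaving out WT female 1 gave 7, and leaving out any 1 of HT lithium females 2 and 3, HT lithium males 1, 3 and 4, WT female 2 and WT males 1 and 2 gave 2. The median of the clock list was 0.088 for HT vehicle against the same WT libraries and 0.032 for HT lithium against HT vehicle.

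Metabolic and signalling genes followed. Pfkfb3 (chromosome 2, 11471433 to 11554077), whose product makes the activator of the glycolytic enzyme phosphofructokinase, lay between 1227 and 1404 in HT lithium (median 1285) and between 898.4 and 1166 in WT (median 998.5), without overlap. Its log2 fold change was 0.37 ± 0.048 (SE), 1.29-fold (adjusted p = 0.000295). Irs2 (chromosome 8, 10984681 to 11008458), an adaptor of the insulin receptor, lay between 2210 and 2477 in HT lithium (median 2286) and between 1499 and 2120 in WT (median 1886), again without overlap (0.35 ± 0.051, adjusted p = 0.000458), with 9530052E02Rik on its opposite strand. Igfbp2, which binds insulin-like growth factors, was lower (-0.32 ± 0.070, adjusted p = 0.0145). These were the called members among 26 genes of insulin and insulin-like growth factor signalling, 1 in each direction (3.85%), with a list median of -0.027. Over all genes tested 1.15% rose and 0.464% fell. Nuak1, a kinase of axon branching, lay between 3078 and 3630 in HT lithium and between 2159 and 3065 in WT, narrowly apart (0.39 ± 0.060, adjusted p = 0.000699). Smad3, which carries transforming growth factor beta signals to the nucleus, rose by 0.33 ± 0.051 (adjusted p = 0.000699) and the receptor gene Tgfbr2 was lower (-0.19 ± 0.041, adjusted p = 0.0117).

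Sox18 (chromosome 2, 181669836 to 181671640), a factor of vascular endothelium, lay between 181.3 and 227.8 in HT lithium (median 205.3) and between 106.7 and 172.5 in WT (median 134.7). The arms did not overlap, and the WT females lay at the top of the WT range, from 135.0 to 172.5. The log2 fold change was 0.60 ± 0.080 (SE), 1.51-fold (adjusted p = 0.000295). The vessel genes did not move with it as a group: of 26 endothelial and mural markers 0 rose and 3 fell (11.5%, against 0.464% of all genes), with a list median of -0.070. Those 3 were Vtn, which encodes vitronectin and is a pericyte marker in brain (-0.26 ± 0.049, adjusted p = 0.00532), the pericyte receptor gene Pdgfrb (-0.20 ± 0.044, adjusted p = 0.017) and the tight junction gene Cldn5 (-0.28 ± 0.064, adjusted p = 0.0216). Vtn stood between 1719 and 1912 in HT lithium and between 2050 and 2403 in WT, without overlap. In bulk tissue, fewer cells of a type and less RNA per cell cannot be told apart.

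Of the other genes with the smallest p among those higher, Ccnd2, a D-type cyclin, lay between 2952 and 3277 in HT lithium and between 2228 and 2951 in WT (0.33 ± 0.053, adjusted p = 0.00103), with 9330179D12Rik on the opposite strand. Cyp26b1, which degrades retinoic acid, lay between 499.2 and 689.8 against 353.2 to 478.8 (0.52 ± 0.088, 1.44-fold, adjusted p = 0.00197). Both sets of arms lay apart. Zbtb16, a zinc finger factor induced by glucocorticoids, overlapped, from 1103 to 1564 in HT lithium and from 629.2 to 1210 in WT (0.60 ± 0.094, adjusted p = 0.000753). Ier5, Necab1 (overlapped by Gm11837 on the other strand) and Fam53b rose by 0.38, 0.31 and 0.44, also with overlapping arms.

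**Figure D2:**
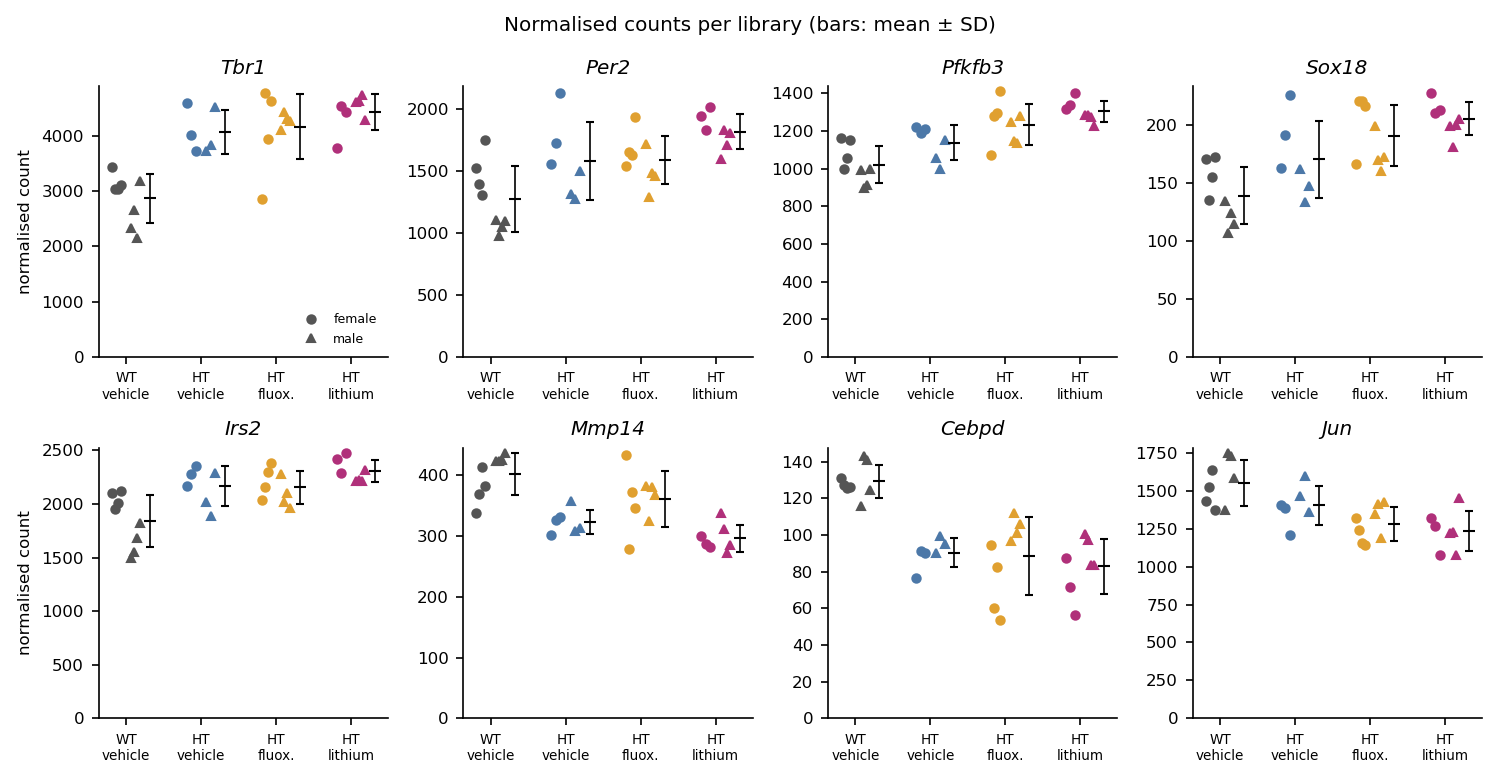
Normalised count of 8 genes (y axes, each from 0) in every library of the 4 arms (x axes), with circles for females, triangles for males and bars for the mean ± SD of an arm. Tbr1, Pfkfb3, Sox18 and Irs2 lie higher and Mmp14 and Cebpd lower in all HT lithium libraries than in all WT vehicle libraries. For each of Pfkfb3, Sox18, Irs2 and Mmp14, some HT vehicle and some HT fluoxetine values fall within the WT vehicle range. For Tbr1 all HT vehicle values lie above that range, and of the HT fluoxetine values only female 1 (2858.4) falls within it. For Cebpd no HT vehicle or HT fluoxetine value falls within it.

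Chaperones of the endoplasmic reticulum were the list with the most members called. Of its 26 genes, 9 rose (34.6%, where 1.15% of all genes tested rose), 0 fell, 24 had a log2 fold change above 0, and the median was 0.12. Hyou1, a large chaperone of the compartment, lay between 3018 and 3389 in HT lithium (median 3249) and between 2535 and 3094 in WT (median 2841), an overlap of the ranges (0.21 ± 0.034, 1.16-fold, adjusted p = 0.000986). Hspa5, or BiP, the Hsp70 that holds the stress sensors of the compartment inactive, ran from 5781 to 7465 in HT lithium (median 6762) and from 5089 to 6232 in WT (median 5539). Its arms overlapped as well, and its log2 fold change was 0.28 ± 0.050 (adjusted p = 0.00308). Pdia4, a disulfide isomerase, rose by 0.30 ± 0.057 (adjusted p = 0.00521), and Manf, a secreted neurotrophic factor induced by such stress, by 0.20 ± 0.042 (adjusted p = 0.0106, with Dcaf1 on the opposite strand). The remaining 5 were Herpud1 and Derl3 of the degradation machinery (0.20 and 0.60, Derl3 at a mean of 29.1 normalised counts), the stress response factor Xbp1 (0.18), the Hsp40 partner Sdf2l1 (0.39) and the isomerase Pdia6 (0.15).

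Promoters are shown for members that hold the endoplasmic reticulum stress response element, a known site of the stress sensor ATF6. It was searched as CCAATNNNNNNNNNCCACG on both strands, from 250 bases before to 50 after the start of each gene in RefSeq (GRCm38.p6). The element was found in 37 of 27025 genes with a promoter in that table (0.137%), in 20 of 12641 such genes tested (0.158%), and in 9 of the 22 members of the list that had a promoter there. Since lists of such genes are built on known stress targets, that share is no independent finding. Of 7 called members with a promoter, 3 held the element, and 6 members that were not called held it too. The 250 bases before the start of those 3 and of Hsp90b1, which holds it at 2 places and was not called (0.12, adjusted p = 0.113), are printed 5′ to 3′ on the strand of the gene with the element in capitals.
Hspa5, chr2:34771840-34772089, plus strand, element beginning 65 bases before the start: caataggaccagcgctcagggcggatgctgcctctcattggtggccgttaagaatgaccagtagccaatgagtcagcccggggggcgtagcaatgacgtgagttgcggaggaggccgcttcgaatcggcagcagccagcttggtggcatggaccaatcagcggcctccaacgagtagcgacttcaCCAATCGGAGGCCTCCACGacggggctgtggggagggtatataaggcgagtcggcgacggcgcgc
Pdia6, chr12:17266339-17266588, plus strand, element beginning 98 bases before the start: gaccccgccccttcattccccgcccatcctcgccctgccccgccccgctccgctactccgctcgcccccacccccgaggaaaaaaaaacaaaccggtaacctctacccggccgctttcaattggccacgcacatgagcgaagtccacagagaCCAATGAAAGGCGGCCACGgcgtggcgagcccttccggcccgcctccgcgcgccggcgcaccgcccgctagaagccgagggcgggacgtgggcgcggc
Derl3, chr10:75893148-75893397, plus strand, element on the reverse strand beginning 156 bases before the start: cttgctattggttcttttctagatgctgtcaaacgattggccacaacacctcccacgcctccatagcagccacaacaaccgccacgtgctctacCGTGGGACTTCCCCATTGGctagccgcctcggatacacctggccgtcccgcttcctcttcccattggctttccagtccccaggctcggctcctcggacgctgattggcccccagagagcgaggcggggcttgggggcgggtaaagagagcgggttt
Hsp90b1, chr10:86705445-86705694, minus strand, elements beginning 212 and 107 bases before the start, the latter on the reverse strand: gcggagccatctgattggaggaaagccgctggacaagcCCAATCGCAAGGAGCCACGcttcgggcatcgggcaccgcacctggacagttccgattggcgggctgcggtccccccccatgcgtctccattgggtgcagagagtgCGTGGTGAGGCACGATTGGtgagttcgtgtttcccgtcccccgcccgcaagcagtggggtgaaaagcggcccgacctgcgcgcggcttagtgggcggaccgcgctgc
A match is a run of letters and not a measured binding site.

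The count of called members of this list moved with the libraries used, while its median hardly did. It was 4 with the marker covariates (median 0.11), 3 without the libraries high in markers (0.12), 0 without those high or low (0.12) and between 4 and 10 when 1 library was left out, lowest without HT lithium male 3 or 4 and 5 without HT lithium female 3 or WT male 1 or 3. DESeq2 called 12 members and edgeR 8. Against HT vehicle the median of the list was 0.11 under lithium, and HT vehicle against the same WT libraries gave 0.039, though no member passed in either by limma. Cytosolic heat shock chaperones, the list closest in function, had 3 of 25 members higher (12%, against 1.15% of all genes) and 0 lower, 23 above 0 and a median of 0.10. The count was 1 with the marker covariates and under quantile scaling, 0 with no sex term, without the libraries high or low in markers, or without HT lithium male 3 or 4, and 1 without HT lithium female 3, WT female 3 or any 1 of WT males 1, 2 and 3. The 3 were Dnajb5 (0.17 ± 0.038, adjusted p = 0.0199), the Hsp110 gene Hsph1 (0.20 ± 0.049, adjusted p = 0.0348) and Dnaja1 (0.13 ± 0.033, adjusted p = 0.0438, with Smu1 on the opposite strand). Of 23 genes of the integrated stress response, the branch that limits translation, 0 rose and 1 fell (4.35%, against 0.464% of all genes): Ddit4, which restrains growth signalling through mTOR (-0.36 ± 0.081, adjusted p = 0.0199, and 0.0523 with the marker covariates).

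**Figure D3:**
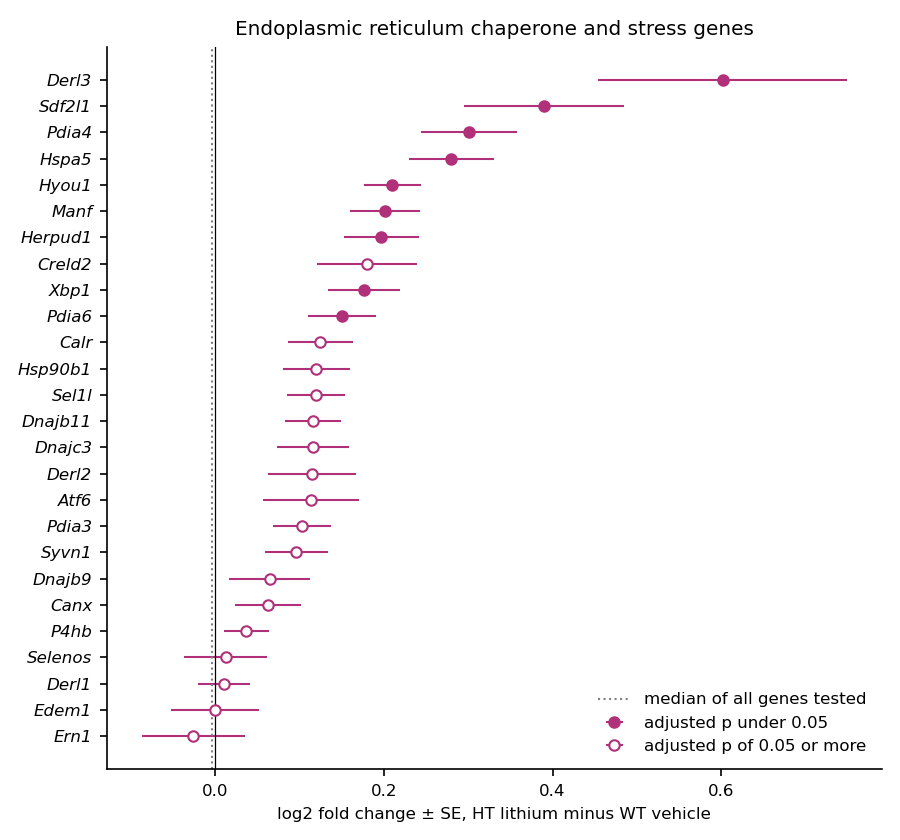
Log2 fold change ± SE of HT lithium against WT vehicle (x axis) for the 26 genes of endoplasmic reticulum chaperones and stress (y axis), filled where the adjusted p was under 0.05, with the median of all genes tested as a dotted line. The 9 filled genes run from 0.15 (Pdia6) to 0.60 (Derl3), and 24 of 26 lie above 0.

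Inositol and GSK3 signalling, on which lithium acts directly, were examined next. Of 34 inositol metabolism genes 0 rose and 0 fell, with a median of 0.022 that became -0.0096 under quantile scaling, and Impa1, one of the inositol monophosphatase genes that lithium inhibits, stood at 0.013 ± 0.034 (adjusted p = 0.878). By edgeR and by DESeq2 the list also held 0 called members. By limma 9 had an unadjusted p under 0.05, which 17.6% of all genes tested reached. Of 45 genes of GSK3 and Wnt signalling 2 rose (4.44%, against 1.15% of all genes) and 1 fell (2.22%, against 0.464%), with a median of -0.029, and Gsk3b, a kinase that lithium inhibits, was at 0.10 ± 0.053 (adjusted p = 0.304). Impa1 and Gsk3b are named outside the rule, as textbook targets. The ligand gene Wnt4 lay between 683.6 and 859.4 in HT lithium (median 774.2) and between 421.9 and 702.3 in WT (median 557.4). These ranges overlapped slightly (0.49 ± 0.099, 1.40-fold, adjusted p = 0.00926), and with both marker means as covariates the adjusted p was 0.0547. Wnt10a, another ligand, rose by 0.40 ± 0.107 (adjusted p = 0.0473) and kept its call in 17 of 34 other settings. The Wnt receptor gene Fzd7 (chromosome 1, 59482424 to 59486955) lay between 156.3 and 195.9 in HT lithium (median 167.9) and between 203.6 and 252.3 in WT (median 221.0), with no overlap, and it passed in all 34 other settings (-0.35 ± 0.072, adjusted p = 0.0104). Sodium and potassium transport genes, which handle ions close to lithium, had 0 of 23 called by limma and by edgeR, 8 at an unadjusted p under 0.05 and 3 called by DESeq2.

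Neurotrophin signalling held 3 higher (13%, against 1.15% of all genes) and 0 lower of 23 genes, around a list median of 0.0059. Bdnf, the neurotrophin itself, lay between 839.8 and 1100 in HT lithium (median 963.5) and between 683.5 and 931.7 in WT (median 778.3), and only WT female 4 reached past 798.1. The log2 fold change was 0.31 ± 0.059 (adjusted p = 0.00473), and 0.25 (adjusted p = 0.126) without the libraries high in markers. Gm45346 lies on the opposite strand of Bdnf. Homer1, a postsynaptic scaffold that activity induces in a short form, rose by 0.26 ± 0.053 (adjusted p = 0.00957), and Vgf, a secreted neuropeptide precursor, by 0.26 ± 0.061 (adjusted p = 0.0255). Vgf kept its call in 21 of 34 other settings.

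Immediate early genes, which neurons switch on within minutes of activity, went in both directions, with a median of -0.0068. Of 36 genes 4 rose (11.1%, against 1.15% of all genes) and 2 fell (5.56%, against 0.464%). Those higher were Ier5, the phosphatase gene Dusp4 (0.35), and Bdnf and Homer1, which the neurotrophin list also counts. Jun, a subunit of the AP-1 factor, lay between 1076 and 1453 in HT lithium (median 1229) and between 1371 and 1751 in WT (median 1554). The ranges overlapped (-0.34 ± 0.064, adjusted p = 0.00532), the call was lost without the libraries high in markers (adjusted p = 0.0737), and Junos lies on the opposite strand. The other gene lower was Btg2, an antiproliferative gene described with the sexes. Glucocorticoid responsive genes were split as well, 2 of 25 higher and 2 lower (8% each, against 1.15% and 0.464% of all genes). Zbtb16 rose, as did Fkbp5, a chaperone of the hormone receptor, from a median of 914.4 in WT to 1216 in HT lithium (0.48 ± 0.105, adjusted p = 0.0156), while Ddit4 and Cebpd fell.

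Cebpd (chromosome 16, 15887286 to 15891031), a leucine zipper factor of acute responses, had the largest fall among the lower genes with the smallest p. It lay between 56.3 and 100.4 in HT lithium (median 83.8) and between 115.8 and 143.2 in WT (median 126.6). All 7 HT lithium libraries were below all 8 WT libraries. The log2 fold change was -0.67 ± 0.111 (SE), a ratio of 0.626 (adjusted p = 0.0013), with Spidr on the opposite strand. Angptl4, an inhibitor of lipoprotein lipase, lay between 45.1 and 83.1 in HT lithium and between 86.4 and 126.2 in WT (-0.66 ± 0.142, adjusted p = 0.0135). Mmp14 (chromosome 14, 54431612 to 54445364), a membrane-bound matrix protease, lay between 272.7 and 337.9 in HT lithium (median 287.2) and between 338.0 and 437.5 in WT (median 418.6). Its arms met almost exactly, HT lithium male 1 just under WT female 1 (-0.44 ± 0.068, a ratio of 0.737, adjusted p = 0.000699), and it passed in all 34 other settings.

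The rest of the 15 lower genes differed by smaller amounts. Slc40a1, the iron exporter ferroportin, differed by -0.30 (adjusted p = 0.0111), the polarity gene Pard6g by -0.30 (adjusted p = 0.0104), Tob2, an antiproliferative gene, by -0.26 (adjusted p = 0.00702) and Ldlrad3 by -0.21 (adjusted p = 0.00532). Arms did not overlap in Parp4 (-0.34 ± 0.072, adjusted p = 0.013), nor in Cep85l and Rfxank (-0.34 and -0.20), which overlap Pln and Nr2c2ap on the opposite strand. The nucleotide excision repair gene Xpa (-0.33 ± 0.068, adjusted p = 0.0104, Ncbp1 on the opposite strand) did not pass once the marker means were covariates (adjusted p = 0.0948), nor did Parp4 (0.0539). Among all 30 genes named by smallest p, the arms did not overlap in 9 of 15 higher and 8 of 15 lower, where they did not in 0.442% of all genes tested. The choice by smallest p favours such separation. With the marker covariates 28 of the 30 stayed called, 22 without the libraries high in markers and 7 without those high or low. Those 7, which also passed in every other setting, were Pfkfb3, Sox18, Per2, Irs2, Tbr1, Mmp14 and Fzd7. Without the libraries high or low in markers all 30 kept their sign. Some log2 fold changes hardly moved there (Bhlhe40 0.405 to 0.408, Cebpd -0.675 to -0.642) and others shrank (Xpa -0.33 to -0.206). That fit had fewer libraries, and a count of calls does not separate fewer libraries from smaller differences.

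Among markers of cortical layers and cell types, those of projection neurons all lay above 0. Of 10 projection neuron markers 2 rose (20%, against 1.15% of all genes), Tbr1 and Neurod6. Neurod6, a transcription factor of glutamatergic neurons, ran from 2220 to 2983 in HT lithium and from 1390 to 2140 in WT (0.47 ± 0.094, adjusted p = 0.00791). All 10 had a log2 fold change above 0 with a median of 0.11, which was 0.032 with the marker covariates. The list median was 0.10 for HT vehicle against the same WT libraries and 0.061 for HT lithium against HT vehicle. Among 22 genes linked to Tbr1 in earlier work, 2 rose (9.09%, against 1.15% of all genes) and 0 fell, with a median of 0.014. The 2 were Tbr1 itself and Fezf2, the factor of subcerebral layer 5 neurons. Fezf2 lay between 791.5 and 1047 in HT lithium (median 899.3) and between 402.0 and 801.3 in WT (median 636.7) and WT female 1 alone overlapped HT lithium (0.61 ± 0.120, 1.53-fold, adjusted p = 0.00791). It was the 1 of 17 layer 5 markers that passed by limma (5.88%, against 1.15% of all genes), where DESeq2 called 2 and the marker covariates gave 2. Layer 6 and subplate markers had 0 of 20 called by limma, edgeR or DESeq2, 2 at an unadjusted p under 0.05 and a median of -0.0098. Plcxd2 was the 1 of 20 upper layer markers that passed by limma (5%, against 1.15% of all genes). Its log2 fold change was 0.25 ± 0.042 (adjusted p = 0.00207), and it was as much higher in HT vehicle (0.24, adjusted p = 0.0251). Of 22 interneuron markers 0 were called by limma and by edgeR and 2 by DESeq2, 9 had an unadjusted p under 0.05, and 16 lay below 0. Their median of -0.15 turned to 0.028 with the marker covariates. The olfactory list, whose mean is a covariate, shares Calb2 with the interneuron list, so that turn is no independent check of the interneuron markers.

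Markers of astrocytes, microglia, oligodendrocyte precursors, vessels and meninges lay mostly below 0, whereas 21 of 27 myelin genes lay above 0 (median 0.037, 0 called by limma, edgeR or DESeq2 and 0 at an unadjusted p under 0.05). For HT vehicle against the same WT libraries, the medians of these lists in the order named were also below 0: -0.059, -0.12, -0.11, -0.087, -0.16 and, for myelin, -0.13. HT lithium against HT vehicle gave -0.021, -0.0053, -0.025, 0.020, -0.087 and, for myelin, 0.15. Astrocyte markers had 2 of 20 lower (10%, against 0.464% of all genes), with 17 below 0 and a median of -0.11. Those 2 were the coagulation factor gene F3 (-0.18 ± 0.043, adjusted p = 0.0282) and the gap junction gene Gja1 (-0.13 ± 0.034, adjusted p = 0.0396). Neither was called with the marker covariates, without the libraries high in markers, or without any 1 of HT lithium female 3, HT lithium males 2, 3 and 4 and WT females 2 and 3. Microglia markers had 19 of 21 below 0 with a median of -0.073 and 0 called by limma, edgeR or DESeq2 (6 at an unadjusted p under 0.05). Of 18 meningeal and fibroblast markers 17 were below 0 with a median of -0.25, and Vtn passed by limma (5.56%, against 0.464% of all genes), where DESeq2 called 4. Their sum lay between 9178 and 12046 in HT lithium and between 11114 and 15190 in WT, and the part of meninges left on the tissue was not tested. Genes of class I antigen presentation and interferon response had 0 of 21 higher and 2 lower (9.52%, against 0.464% of all genes), 20 below 0 and a median of -0.15. The 2 were the class I heavy chains H2-D1 (-0.20 ± 0.045, adjusted p = 0.0194) and H2-K1 (-0.26 ± 0.070, adjusted p = 0.0472), close copies among which reads can be split. Neither was called with the marker covariates or without the libraries high in markers. All 21 olfactory area markers were below 0, with a median of -0.99 and 0 called by limma, edgeR or DESeq2 (12 at an unadjusted p under 0.05). Their median was -0.060 for HT vehicle against the same WT libraries and -0.84 for HT lithium against HT vehicle. Drug and amount of neighbouring tissue thus cannot be told apart where these markers differ between the arms.

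Of 34 presynaptic release genes 29 lay above 0 with a median of 0.060, and 0 were called by limma, edgeR or DESeq2 (7 at an unadjusted p under 0.05). Postsynaptic and glutamate receptor genes had 2 of 47 higher (4.26%, against 1.15% of all genes), Homer1 and the adhesion gene Lrrtm1 (0.18 ± 0.041, adjusted p = 0.0194, within Ctnna2 on the opposite strand). Lrrtm1 was also higher in HT vehicle (0.21, adjusted p = 0.0304). Potassium channels had 1 of 79 higher and 1 lower (1.27% each, against 1.15% and 0.464% of all genes), so the higher share was near that of all genes. The 2 were Kcng1 (0.42 ± 0.083, adjusted p = 0.00793) and Kcne4 (-0.69 ± 0.164, adjusted p = 0.0281). Cacnb1 of 37 sodium and calcium channel genes, Chrm4 of 20 adrenergic, muscarinic and dopamine receptor genes, the prostaglandin synthase Ptgs2 of 24 arachidonic acid genes and the lysosomal glucosidase Gaa of 41 lysosome genes were higher by 0.21, 0.28, 0.28 and 0.20. Each was the 1 called member of its list (2.7%, 5%, 4.17% and 2.44%, against 1.15% of all genes). None of these 4 was called with the marker covariates, and they kept their calls in 18, 17, 24 and 18 of 34 other settings. In 24 of the 47 lists examined no member was called by limma or by edgeR, and in 5 of these 24 DESeq2 called a member. They included oxidative phosphorylation, mitochondrial and cytosolic ribosomal proteins (72 of 81 cytosolic members below 0, median -0.064), proteasome, cholesterol synthesis, myelin, serotonin genes and autism-linked chromatin regulators.

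Carriers given vehicle were set against the same WT libraries in the same fit, with 6 libraries where the lithium arm had 7. HT vehicle against WT had 18 genes called (0.101% of those tested), 16 higher (0.0895%) and 2 lower (0.0112%), where edgeR called 16 and DESeq2 146, and 1972 genes (11%) had an unadjusted p under 0.05. Of the 30 genes named for lithium, 2 were among them, Tbr1 (0.52, adjusted p = 0.0251) and Ldlrad3 (-0.23, adjusted p = 0.0251), and all 30 had the same sign as under lithium. These 30 were chosen by their p under lithium, so smaller values under vehicle are favoured by the choice. Per2 was at 0.32 (adjusted p = 0.0901), Pfkfb3 at 0.16 (adjusted p = 0.198) and Mmp14 at -0.31 (adjusted p = 0.0613). Both comparisons use the WT libraries, so likeness between them is no independent evidence.

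**Figure D4:**
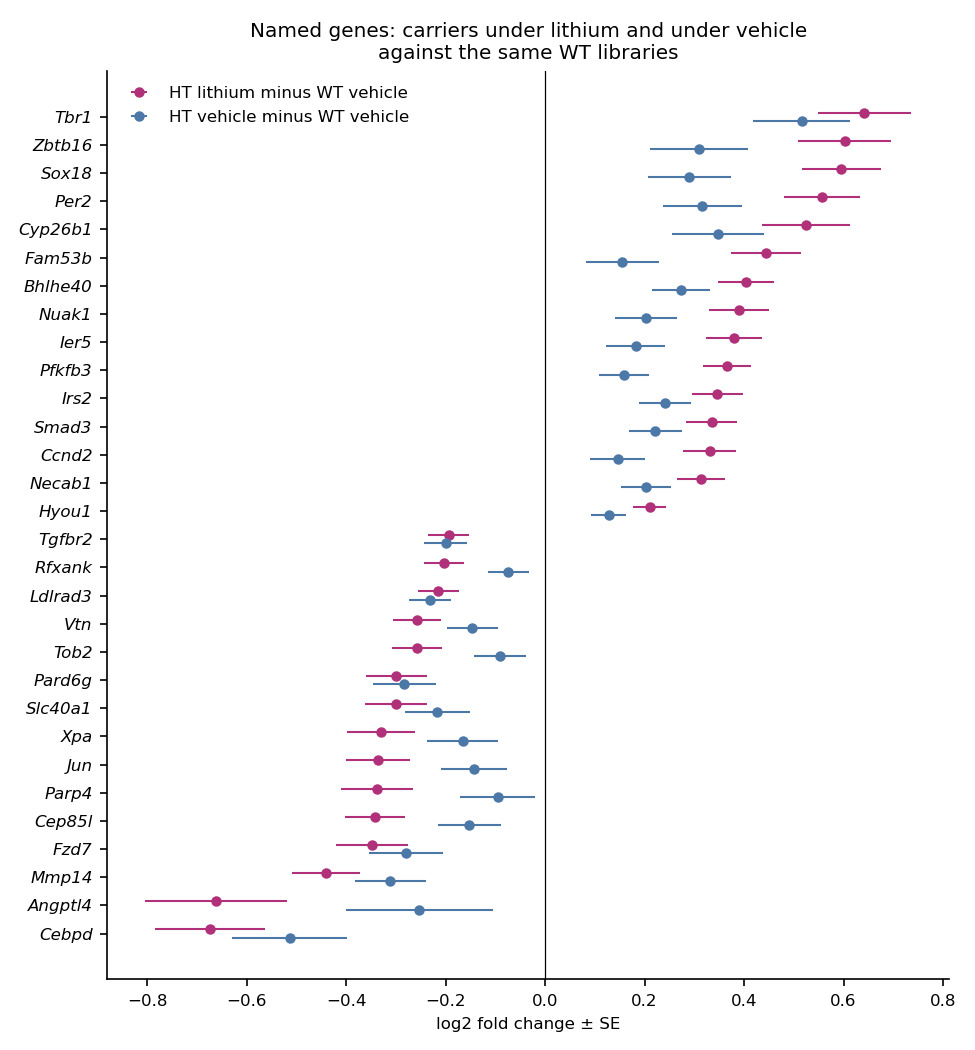
Log2 fold change ± SE (x axis) of the 30 genes named for HT lithium against WT vehicle (y axis), with HT vehicle against the same WT libraries beside it. Both points lie on the same side of 0 for all 30 genes, and the lithium point lies farther out except for Ldlrad3 and Tgfbr2. The 30 genes were chosen by their p under lithium, and that choice favours a lithium point farther out.

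The direct comparison of lithium with vehicle in carriers gave 0 genes past the threshold (0%) by limma, 0 by edgeR and 18 by DESeq2. By limma 1952 genes (10.9%) had an unadjusted p under 0.05, where 894 would be expected with no difference, as for each comparison here. In this comparison the olfactory list median was -0.84 and the striatal list median 0.24, and the part of these markers in that count was not tested. The smallest adjusted p among the 30 named genes was 0.238. Their log2 fold changes against HT vehicle ran from 0.082 to 0.31 for the 15 higher genes and from -0.41 to 0.018 for the 15 lower genes. The gene with the smallest p was Abcc10, a multidrug transporter (-0.27 ± 0.048, adjusted p = 0.0831), followed among the higher genes by the zinc transporter Slc30a9 (0.14 ± 0.028, adjusted p = 0.238). So a call against WT with none against HT vehicle does not show that lithium moved the gene. HT lithium against HT fluoxetine likewise gave 0 genes (0%) by limma and edgeR and 2 by DESeq2. An unadjusted p under 0.05 was reached by 582 genes (3.25%) by limma, below the 894 expected with no difference. The smallest adjusted p of the 30 was 0.996.

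By sex, the 4 HT lithium males against the 4 WT males gave 619 genes (3.46% of those tested), 423 higher (2.37%) and 196 lower (1.1%), with 472 by edgeR and 1192 by DESeq2. The 3 females against 4 gave 0 (0%) by limma, 0 by edgeR and 16 by DESeq2, with 1021 genes (5.71%) at an unadjusted p under 0.05. The female minus male difference itself passed in 0 genes by limma (0%), 0 by edgeR and 2 by DESeq2, with 1459 (8.16%) at an unadjusted p under 0.05, so a difference between the sexes was not shown for any gene by the main test. All 30 named genes had the same sign in both sexes, 29 passed in males, and the smallest adjusted p in females was 0.134, for Cebpd (-0.84 in females, -0.52 in males). For Tbr1 the log2 fold change was 0.43 in females (adjusted p = 0.549) and 0.84 in males (adjusted p = 0.000613).

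In some genes named by their p in males or for the female minus male difference, the WT males stood apart from the WT females. That choice favours such separation. Btg2 lay between 1400 and 1663.9 in the 4 WT males, between 555.9 and 797.0 in the 4 WT females and between 477.8 and 808.4 in all 7 HT lithium libraries. Of these, the WT males alone were high, and HT vehicle males lay at 1197.3, 1154.1 and 685.7. The log2 fold change was -1.41 in males (adjusted p = 0.000709) and -0.093 in females. The matricellular gene Ccn1 was lower in males (-1.28, adjusted p = 0.00479). The immediate early gene Ier2 (-0.74 in males, adjusted p = 0.0049) lay at 409.6 to 437.6 in WT males, 241.3 to 273.9 in WT females and 247.3 to 352.0 in HT lithium. In the opposite direction, Spata2l lay between 1013 and 1122 in the WT males and between 1277 and 1396 in the WT females, against 1328 to 1416 in HT lithium (0.37 in males, adjusted p = 0.000398). The glucose transporter gene Slc2a1 was at 2030 to 2710 in WT males, 3488 to 4464 in WT females and 3027 to 3905 in HT lithium (female minus male -0.70 ± 0.145, adjusted p = 0.308). The olfactory marker means of the 4 WT males (0.59 to 1.48) also lay above those of the 4 HT lithium males (-2.14 to 0.25), while WT female 3 was at 0.83 and HT lithium female 1 at 0.59. The male count was 39 once both marker means entered the fit. The part of those markers in the values of single genes was not tested.

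**Figure D5:**
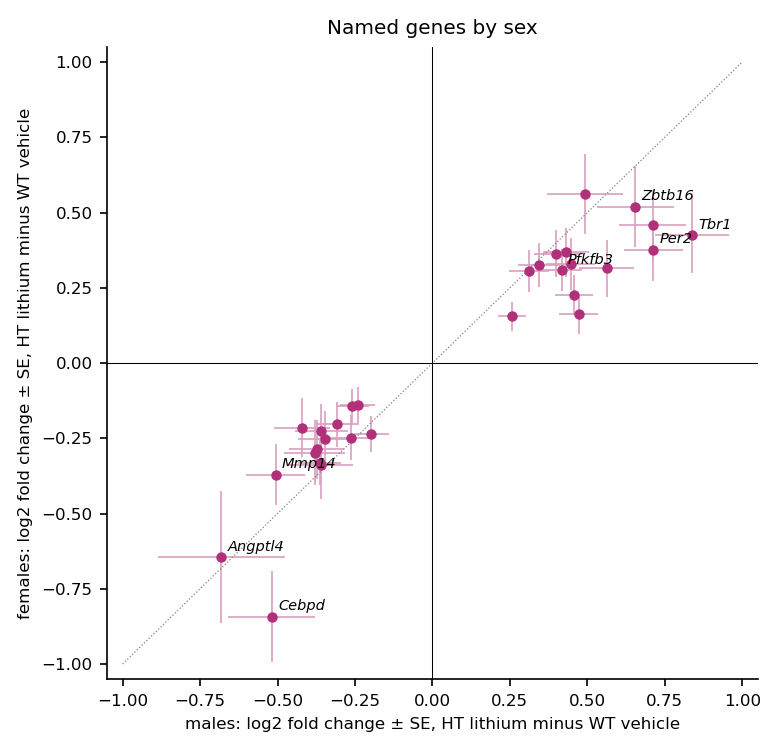
Log2 fold change ± SE of HT lithium against WT vehicle in males (x axis) and in females (y axis) for the 30 named genes, with a dotted line where both are equal. All 30 points lie in the quadrants of equal sign, and Tbr1 and Per2 lie farther out in males and Cebpd in females.

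Position on chromosome 2 was examined because the K228E allele lies there. Of 1379 genes tested on the chromosome 24 were called, 1.74% against 1.62% of all genes. None of the 164 tested genes within 20 Mb of Tbr1 was called besides Tbr1 itself, and 9 higher and 3 lower of 628 were called within 50 Mb (1.91%). The nearest were the nuclear receptor gene Nr6a1, at 22.88 Mb (0.34 ± 0.061, adjusted p = 0.00308), the unnamed model Gm13736 at 25.71 Mb and Hspa5 at 27.03 Mb. Gm13736 lay between 11.7 and 19.4 in HT lithium, at 0 in 6 of 8 WT libraries, at 5.3 in WT female 3 and at 16.8 in WT male 2, and its log2 fold change of 3.16 depends on the pseudocount. It was as high in HT vehicle (17.2 ± 5.12 SD, n = 6).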

How the data were processed

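Prefrontal cortex RNA of 29 samples was sequenced. The authors deposited a normalised signal per gene and library, read counts divided by 1 size factor per library as the values themselves show: in every library 100% of values were whole multiples of 1 step within a tolerance of 0.0001. Whole reads could therefore be recovered, although in 3 HT fluoxetine libraries the step lay near 1. The submitters' processing notes name Salmon 0.11.2, R 3.6.0, DESeq2 1.19.11 and GRCm38, with no role. The annotation release, strand setting and gene filter are not given in the sources used here. Of 18240 identifiers 18227 matched GENCODE M21, which gave names and coordinates. Recovered reads came to 22.81 M to 31.71 M per library, and low-count genes are the least precise.

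The scale was log2(value + 1), on which a fold change understates that of a low gene. A gene entered the test if it reached 10 in 3 or more libraries, as 17881 did. The main test was limma 3.58.1 (R 4.3.3) with an intensity trend, 4 arm means and a sex term over all 29 libraries (24 residual degrees of freedom). It was two-sided, p-values were adjusted after Benjamini and Hochberg across the 17881 genes, and the threshold was 0.05. Differences within each sex came from 8 group means (21 residual degrees of freedom). The script was tested on simulated data before use. Named genes were the 15 higher and 15 lower past the threshold with the smallest p, a mean value of at least 50 and an assigned name, with Tbr1, up to 4 members per list, up to 3 per direction for the comparison with HT vehicle, the sexes and their difference, and up to 5 called genes of chromosome 2 nearest to Tbr1. Genes named otherwise (Slc17a7, Gsk3b, Impa1, further called list members and Hsp90b1) were chosen after their values were seen. The members, the 47 gene lists and the tests were chosen with earlier results of these data known. Lists are described by counts and medians, without a test.

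Alternatives were quantile and median-ratio scaling, pseudocounts of 0.5 and 10, no filter and a filter at 50, no trend, robust moderation, library weights, only the 15 libraries, group means, no sex term, a replicate block, 0.1 as the threshold, and omission of each of the 15 libraries. Added with the data in view were fits of the recovered reads with edgeR 4.0.16 (quasi-likelihood) and DESeq2 1.42.0, a fit with olfactory and striatal marker means as terms, and fits without libraries whose means were more than 1 (log2) from the median library.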

Additional observations from a re-analysis of the deposited data

Results flagged for a closer look

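In 7 of 142 pairs of a gene and an arm examined, 1 library lay apart from the others of its arm by Dixon's test at the 95% level, which chance alone does in about 1 of 20 groups. In WT vehicle, male 2 was high in Gm13736 (16.8, the next library at 5.3) and in Necab1 (3379.2, the next at 2943.8). WT vehicle female 4 was high in Camk1g (1092.1, the next at 938.3) and in Bdnf (931.7, the next at 798.1). WT vehicle male 1 was high in Fzd7 (252.3, the next at 225.8) and in Pdgfrb (1014.8, the next at 920.5). In HT lithium, male 4 was high in Dnaja1 (9064.4, the next at 8646.8). Camk1g, a calmodulin-dependent kinase gene, was among the 3 higher genes with the smallest p in females (0.41, adjusted p = 0.209).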

How the results depend on the processing

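The 289 genes called for HT lithium against WT vehicle became 660 with library weights, 151 with no sex term, 650 at a threshold of 0.1, 538 by DESeq2, 127 with the marker covariates (97 shared with the 289), 77 without the libraries high in markers (74 shared) and 10 without those high or low. Leaving out 1 library gave 124 (without HT lithium male 3) to 452 (without WT vehicle female 4). It was 145 without HT lithium female 3, 138 without male 4, 144 without WT vehicle male 1 and 154 without male 3, and 187 without HT lithium male 1 or WT vehicle male 2. The male count, 619, became 39 with the marker covariates, 79 without libraries high in markers, 1192 by DESeq2 and 96 (without WT vehicle male 3) to 1927 (without male 4) with 1 library left out. Without HT lithium males 1, 3 and 4 in turn it was 153, 99 and 386, and without WT males 1 and 2 it was 136 and 340. HT vehicle against WT, 18 genes, became 146 by DESeq2. Counts of 0 became 2 (DESeq2, against fluoxetine), 18 (DESeq2, against HT vehicle), 16 (DESeq2, females) and 2 (DESeq2, female minus male), and with 1 library left out 0 to 2 against HT vehicle (2 without HT lithium female 1), 0 to 1 in females (1 without HT lithium female 1) and 0 to 1 for the sex difference (1 without WT vehicle female 1).

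Replicate numbers did not pair the samples: over 7 pairs the correlation of deviations ran from -0.264 to 0.096, and 1 library correlated best with its own number. With the replicate block 360 genes passed against WT and 0 against HT vehicle. No count of calls and no log2 fold change of a named called gene changed direction, but the medians of a number of lists did. Among them, the medians of interneuron markers (-0.15) and cholesterol genes (0.038) were 0.028 and -0.011 with the marker covariates, where the interneuron and olfactory lists share Calb2. Those of layer 6 (-0.0098) and striatal markers (-0.022) were 0.055 and 0.10 without the libraries high in markers. That of inositol genes (0.022) was -0.0096 under quantile scaling. Genes with few reads are limited by depth.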
